A study of Homo sapiens with 6 samples.

Results

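The voltage-gated sodium and calcium channel genes encode the pore-forming and auxiliary subunits of the channels that open when a membrane depolarises. Table rows that carry 1 gene name were taken as members when the name was SCN followed by a number and A or B, or began with CACNA, CACNB or CACNG, which gave 34 of the 26906 rows. Of these, 13 belong to sodium channels and 21 to calcium channels. A mean normalised read count of at least 10 over the 6 libraries was reached by 23 members and missed by 11. Of the family names, SCN10A, CACNA1A, CACNA1E, CACNA1S, CACNG3 and CACNG6 were not analysed here.

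Sodium channels consist of an alpha subunit, which forms the pore and senses voltage, and of beta subunits, which adjust gating and act in cell adhesion. Calcium channels have an alpha1 pore, an extracellular alpha2delta subunit and a cytoplasmic beta subunit that bring the pore to the membrane. Several gamma subunits serve mainly as partners of AMPA-type glutamate receptors. In sympathetic neurons, the lineage from which neuroblastoma arises, sodium channels carry the action potential and N-type calcium channels open the way to transmitter release.

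The cells were BE-(2)-C, a human neuroblastoma line with amplified MYCN. One group of 3 libraries came from cells given ELF4 siRNA, which targets the ETS family transcription factor ELF4, and the other group of 3 libraries from cells given Control siRNA. PolyA RNA was taken 48 hours later in both groups, and the same line was used in each, so every value describes 1 cell line. The series title ties ELF4 to miR-124, to proliferation and to the undifferentiated state, and the question here was which ion channel transcripts differed between the groups.

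The libraries held 23148635 to 38097986 reads, recovered as whole numbers from the deposited values. ELF4 itself was 5.51, 5.61 and 3.105 normalised reads in ELF4 siRNA replicates 1, 2 and 3, and 42.4, 38.8 and 46.8 in Control siRNA replicates 1, 2 and 3. The targeted transcript was thus low in each library labelled ELF4 siRNA (-2.96 on the log2 scale, SE 0.25, limma adjusted p = 5.38e-07). ELF4 reached a count of 10 in the 3 Control siRNA libraries alone and was tested through that group, which favours a difference. All 9 sympathoadrenal markers, among them MYCN, HAND2 and DBH, had a mean of at least 10. They summed to 211849 to 232726 in ELF4 siRNA libraries and 188950 to 201246 in Control siRNA libraries. Single markers differed in direction, so the sum does not stand for each of them. MYCN averaged 70994.5 with ELF4 siRNA and 78443 with Control siRNA, and DBH averaged 8048 with ELF4 siRNA and 9037 with Control siRNA. HAND2 averaged 18572 with ELF4 siRNA and 13710 with Control siRNA. Of 5 brain neuron markers, 1 had a row, SLC17A7, and its level was 1.03 to 3.37 with ELF4 siRNA and 0.942 to 3.54 with Control siRNA. Skeletal muscle had 1 of 8 markers with a row, ACTA1, at 74.5 to 87.0 with ELF4 siRNA and 79.3 to 106 with Control siRNA. Of 7 heart muscle markers 5 had a row, summing to 815 to 854 with ELF4 siRNA and 695 to 724 with Control siRNA, and TNNT2 held most of that signal. The 6 Schwann and glial markers summed to 235 to 245 with ELF4 siRNA and 201 to 222 with Control siRNA, but differed in direction. S100B averaged 89.3 with ELF4 siRNA and 62.7 with Control siRNA, and GFAP averaged 45.3 with ELF4 siRNA and 62.9 with Control siRNA. The glial regulator SOX10 averaged 4.95 with ELF4 siRNA and 2.01 with Control siRNA. SOX10 had 1 to 9 reads a library, its groups overlapped and it was not tested. Of the sensory neuron markers, PRDM12 averaged 16.2 with ELF4 siRNA and 11.2 with Control siRNA, POU4F1 averaged 14.8 with ELF4 siRNA and 28.7 with Control siRNA, and CALCA averaged 1.42 with ELF4 siRNA and 2.31 with Control siRNA. The part of these markers in the channel results was not tested. In bulk RNA, fewer cells of a type and less RNA per cell cannot be told apart.

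After ELF4 siRNA, 11 channel genes rose, 3 fell and 10 did not pass, among the 24 that could be tested. Across all genes tested 45.1% were called, 20.7% as rises and 24.4% as falls. The rises were led by CACNA1B, the pore of the N-type calcium channel, which reached 265% of its control level, and by SCN2A, a neuronal sodium channel pore, at 192%. All 3 tested alpha2delta genes were higher, as was SCN3B, the beta subunit that made up nearly all sodium beta signal. CACNA1H, the pore of a low-voltage-activated T-type calcium channel, moved the other way, to 76.5% of its control level. The pores SCN8A and SCN9A, which had counts like that of SCN3A, did not pass.

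A gene was tested when its normalised count was at least 10 in at least 3 libraries. It was called when the limma p-value, adjusted by Benjamini and Hochberg over all 20339 genes tested, was under 0.05. Changes are log2 fold changes of log2(count + 1), ELF4 siRNA over Control siRNA, a scale that understates changes of low genes, and errors are SD or SE with n = 3 libraries per group. Among the 15 channel genes with a mean of at least 100, 9 rose and 1 fell, where 24.7% of all 13056 such genes rose and 32.8% fell. The median log2 fold change was 0.32 over the tested channel genes and -0.00 over all genes tested. The ranges of the 2 groups were separate for 16 of the 24 channel genes (66.7%), and for 53.6% of all genes tested. Among genes with a mean of at least 100 the shares were close, at 10 of 15 channel genes (66.7%) and 64.6% of all such genes. Of the 24, 4 (SCN7A, SCN2B, SCN4B and CACNG5) met the filter with all 3 libraries of one group and 1 of the other, which favours a difference, and without them 10 of 20 rose and 1 fell.

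**Figure D1:**
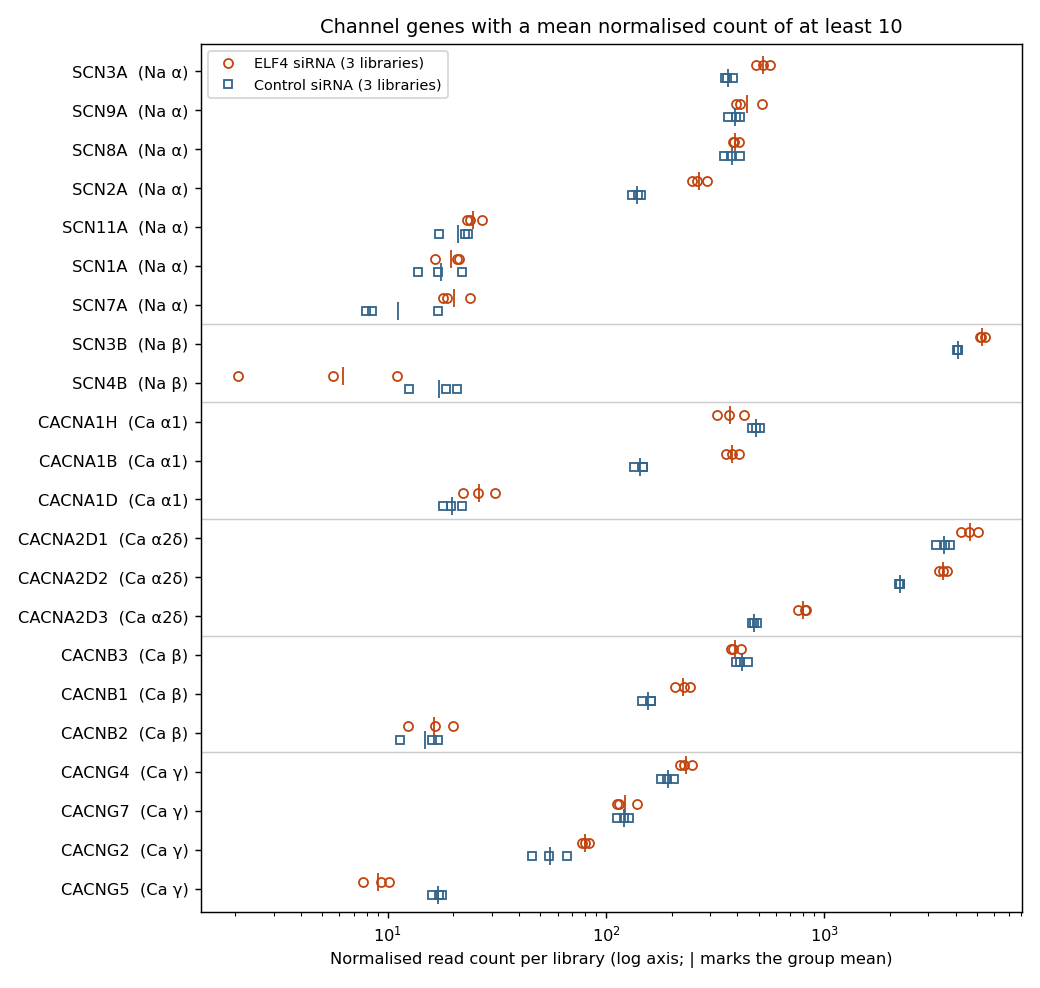
Normalised read count of 22 channel genes with a mean of at least 10, on a log axis. Circles are the 3 ELF4 siRNA libraries, squares the 3 Control siRNA libraries and vertical ticks the group means. SCN3B and the alpha2delta genes CACNA2D1 and CACNA2D2 stand highest, and CACNA1B shows the widest gap between groups among the genes above 100.

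Levels can be set side by side between genes only per length, here the normalised count per kilobase of the exons that GENCODE 29 gives each gene. In the genes' own rows SCN3B was highest on that scale after ELF4 siRNA (559 per kb, against 431 in controls), followed by CACNA2D2 (553 with ELF4 siRNA, 351 in controls) and CACNA2D1 (514 with ELF4 siRNA, 391 in controls), and with ELF4 siRNA these did not differ beyond their SD of 15.4, 24.7 and 47.8 per kb. CACNA2D3 came next, at 172 per kb with ELF4 siRNA and 102 with Control siRNA. A group of genes at 26.2 to 68.5 per kb with ELF4 siRNA followed, among them CACNG4, CACNB3, SCN3A, CACNG7, CACNA1H, CACNA1B, SCN9A, CACNB1 and SCN8A in that order. This order leaves out rows that join a member with another gene, whose reads cannot be divided between the names. With its joined row CACNG4 would be at 693 per kb with ELF4 siRNA and 571 with Control siRNA, above SCN3B, and SCN8A at 65.6 with ELF4 siRNA and 63.9 with Control siRNA. Of the genes in that order, CACNA1B was at 38.4 per kb with ELF4 siRNA and at 14.5 per kb with Control siRNA. CACNG7 and CACNA1H, at 43.6 and 43.1 per kb with ELF4 siRNA, lay within their SD of each other. SCN2A, with 23.7 kb of annotated exon, was at 11.3 per kb with ELF4 siRNA and 5.86 with Control siRNA, and its per-length level depends on that long annotation.

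Among the sodium channel pores, 3 of 8 tested genes rose and 5 did not pass. SCN2A, found in axons of central neurons, counted 248, 262 and 291 in ELF4 siRNA replicates 1, 2 and 3, and 144, 141 and 132 in Control siRNA replicates 1, 2 and 3. Each ELF4 siRNA library was thus well above each control library, and the log2 fold change was 0.94 (SE 0.087, limma adjusted p = 1.13e-06). SCN3A, a pore best known from embryonic neurons, counted 524, 488 and 563 with ELF4 siRNA and 382, 349.6 and 359.9 with Control siRNA. These groups did not overlap either, and the change was 0.53 (SE 0.069, limma adjusted p = 2.73e-05). SCN3A and SCN2A lie next to each other in the RefSeq gene order, with no protein-coding gene between them.

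SCN7A encodes an atypical family member that responds to extracellular sodium rather than to voltage. Its counts were 18.7, 17.96 and 23.8 with ELF4 siRNA, and 8.48, 7.996 and 17.001 with Control siRNA, from 7 to 24 reads a library. The third control library came close to the ELF4 siRNA libraries, and the rise of 0.87 (SE 0.29, limma adjusted p = 0.024) was lost without Control siRNA replicate 1 (0.0854) or 2 (0.0794), without ELF4 siRNA replicate 3 (0.0972), without the trend in limma (0.0592) and with DESeq2 (0.145). Over the alternatives the adjusted p of SCN7A ranged from 0.00339 to 0.145. SCN7A follows SCN1A and SCN9A in a second run of neighbouring genes.

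SCN9A and SCN8A, with mean counts near that of SCN3A, showed smaller differences. SCN9A, a channel of sensory and sympathetic neurons, counted 392, 413 and 516 with ELF4 siRNA and 412, 361 and 396 with Control siRNA, where 1 high ELF4 siRNA library stood apart from the other two. The groups overlapped, and the 95% confidence interval of the log2 fold change ran from -0.03 to 0.37. SCN8A, the channel of nodes of Ranvier, counted 383, 386 and 405 with ELF4 siRNA and 349, 412 and 375 with Control siRNA. These groups overlapped too, with an interval of -0.11 to 0.21, and both intervals lie below the change of SCN2A. A second row that joins SCN8A with AC068987.1 held 60.2% of the signal of both rows, at 588 ± 2.04 with ELF4 siRNA and 575 ± 5.15 with Control siRNA, and adding it gave a change of 0.04.

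SCN11A and SCN1A were expressed at a low level. SCN11A, a channel of pain-sensing neurons, counted 23.1, 26.9 and 23.8 with ELF4 siRNA and 22.6, 17.1 and 23.4 with Control siRNA. SCN1A, known from inhibitory neurons of the brain, counted 16.5, 21.3 and 20.7 with ELF4 siRNA and 16.96, 13.7 and 22.0 with Control siRNA. In both genes the groups overlapped, with intervals of -0.20 to 0.65 for SCN11A and -0.33 to 0.66 for SCN1A, which at 12 to 33 reads a library include both no change and the change of SCN3A. The skeletal muscle pore SCN4A had 1 to 8 reads a library and was not tested.

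**Figure D2:**
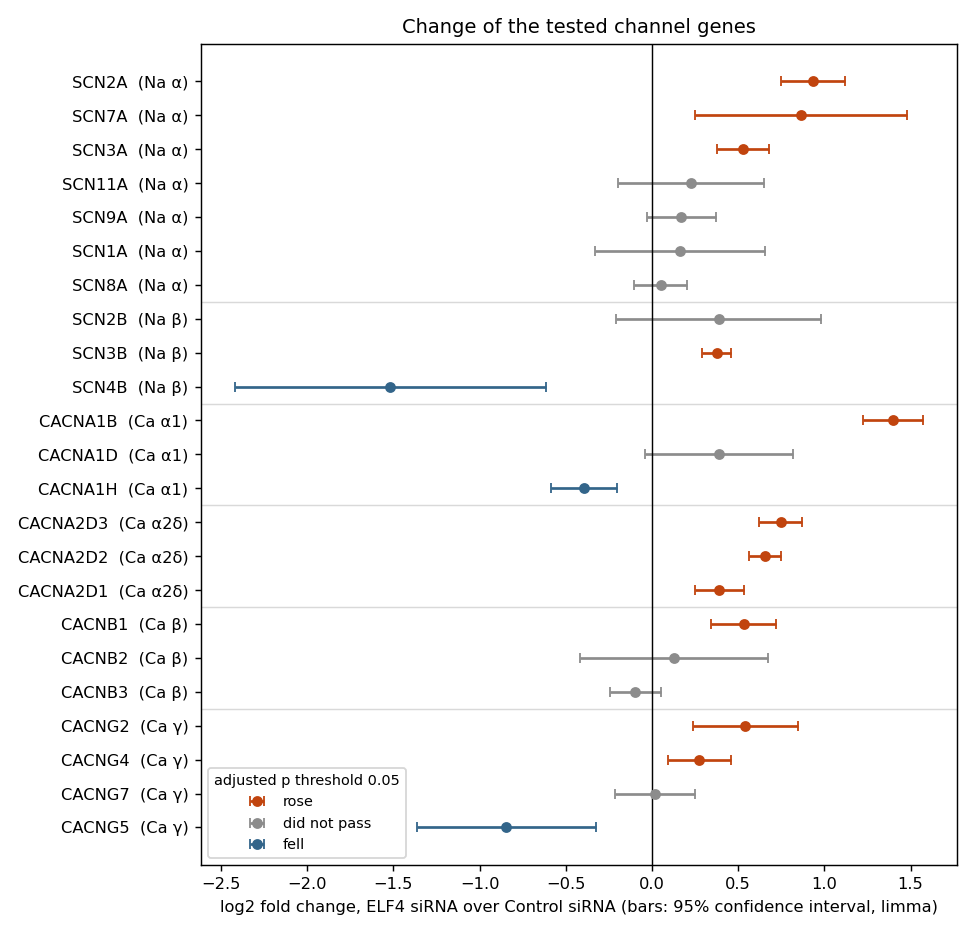
Log2 fold change, ELF4 siRNA over Control siRNA, of 23 tested channel genes by subunit class, with 95% confidence intervals from limma. Genes that rose, fell or did not pass at an adjusted p of 0.05 differ in colour. CACNA1B stands at 1.40 and SCN4B, with the widest interval, at -1.52.

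Of the sodium channel beta subunits, 1 of 3 tested rose and 1 fell. SCN3B counted 5172, 5237 and 5451 with ELF4 siRNA and 4111, 4036 and 4080.3 with Control siRNA. The spread within each group was small beside the gap, and the log2 fold change was 0.37 (SE 0.039, limma adjusted p = 3.00e-06). It held 99.3% ± 0.170 of the beta signal per kb with ELF4 siRNA and 98.6% ± 0.191 with Control siRNA. SCN4B, a beta subunit joined to the pore by a disulphide bond, counted 11.02, 5.61 and 2.07 with ELF4 siRNA and 20.7, 12.6 and 18.4 with Control siRNA. All values of SCN4B were low, at 2 to 10 reads with ELF4 siRNA and 11 to 26 with Control siRNA, and the change of -1.52 on the log2 scale (SE 0.42, limma adjusted p = 0.00873) missed the threshold without the trend (0.0588), while its adjusted p over the alternatives ranged from 0.00137 to 0.0588. The SCN4B change was -1.005 without ELF4 siRNA replicate 3 and -1.99 without ELF4 siRNA replicate 1. SCN2B, its neighbour in the gene order, counted 12.1, 11.2 and 10.3 with ELF4 siRNA and 6.60, 10.3 and 8.501 with Control siRNA. Its groups were barely apart, and it did not pass (limma adjusted p = 0.281).

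The calcium channel pores held the largest rise among the tested channel genes beside a fall. CACNA1B counted 355, 379 and 405 in ELF4 siRNA replicates 1, 2 and 3, and 148, 149 and 134 in Control siRNA replicates 1, 2 and 3. The lowest ELF4 siRNA library was far above the highest control library, and the log2 fold change was 1.40 (SE 0.081, limma adjusted p = 1.61e-08). CACNA1H counted 322, 427 and 365 with ELF4 siRNA and 466, 484 and 506 with Control siRNA. The groups did not overlap, although ELF4 siRNA replicate 2 came near the controls, and the change was -0.40 (SE 0.088, limma adjusted p = 0.00216). CACNA1D, an L-type pore of neurons and endocrine cells, counted 22.0, 25.8 and 31.0 with ELF4 siRNA and 17.9, 19.4 and 22.0 with Control siRNA. Its groups were apart by under 1 read, and the change of 0.39 did not pass (limma adjusted p = 0.134, interval -0.04 to 0.82).

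Per kilobase of exon, CACNA1B and CACNA1H made up most of the alpha1 signal in every library. CACNA1B held 46.7%, 41.9% and 47.2% of it with ELF4 siRNA, and 20.9%, 20.6% and 17.98% with Control siRNA. CACNA1H held 48.7%, 54.2% and 49.0% with ELF4 siRNA, and 75.6%, 77.1% and 78.1% with Control siRNA. These shares cover the 7 alpha1 genes with a row and so leave out CACNA1A, CACNA1E and CACNA1S. Among the 9 sodium pore genes the shares of SCN2A and SCN3A differed less. SCN2A held 6.47% ± 0.112 with ELF4 siRNA and 4.12% ± 0.196 with Control siRNA. SCN3A held 30.7% ± 1.46 with ELF4 siRNA and 26.0% ± 1.29 with Control siRNA. The joined row of SCN8A is not in these shares, so that of SCN8A may be too low, to an unknown extent.

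**Figure D3:**
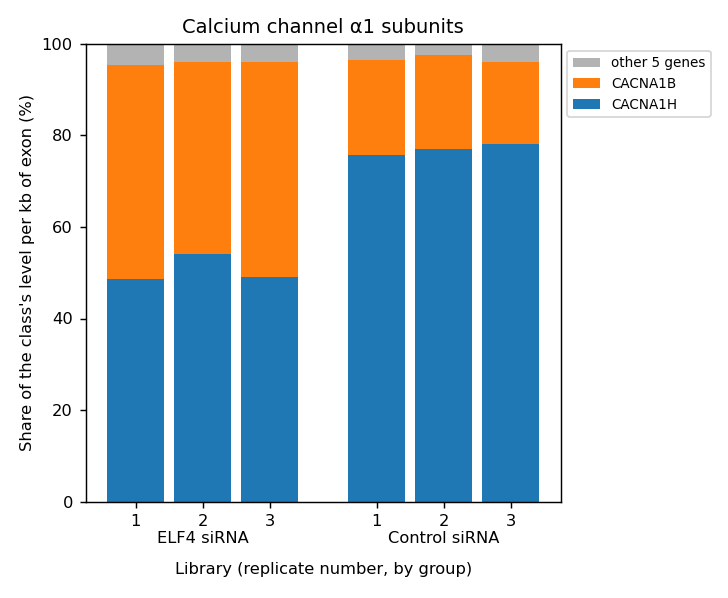
Share of the summed level per kilobase of exon that each calcium channel pore gene held in each library, over the 7 alpha1 genes with a row of their own. Bars are single libraries, the 3 ELF4 siRNA ones left of the 3 Control siRNA ones. In replicate 2, CACNA1B and CACNA1H held 41.9% and 54.2% with ELF4 siRNA, against 20.6% and 77.1% with Control siRNA.

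The other calcium channel pores had few reads. CACNA1C, an L-type pore of heart, smooth muscle and neurons, had 4, 3 and 4 reads with ELF4 siRNA and 1 read in each Control siRNA library. It was below the filter, and in the fit without a filter it was the only one of the 10 untested members to be called (limma adjusted p = 0.0324), on counts too small for a firm statement. CACNA1F, known from photoreceptors, counted 14.3, 12.3 and 8.28 with ELF4 siRNA and 8.48, 3.43 and 8.501 with Control siRNA, and these overlapped. The T-type pores CACNA1G and CACNA1I had 0 to 5 reads a library, so CACNA1H was the T-type gene with a level that could be compared.

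The stretch before the transcription start is shown for the pore that rose most and for the sodium pore that rose most. It is also shown for the 1 member with a match to CCGGAA, the letters searched here for ETS factors, the family of ELF4. The sequences are the 250 bases before a RefSeq start on GRCh38.p14, 5′ to 3′ on the gene's strand. Capitals in SCN11A mark CCGGAA and its other strand TTCCGG, and shorter forms of the ETS motif are not marked. CACNA1B lies at chr9:137877532-137877781 on the plus strand, SCN2A at chr2:165239164-165239413 on the plus strand and SCN11A at chr3:39051945-39052194 on the minus strand.
CACNA1B: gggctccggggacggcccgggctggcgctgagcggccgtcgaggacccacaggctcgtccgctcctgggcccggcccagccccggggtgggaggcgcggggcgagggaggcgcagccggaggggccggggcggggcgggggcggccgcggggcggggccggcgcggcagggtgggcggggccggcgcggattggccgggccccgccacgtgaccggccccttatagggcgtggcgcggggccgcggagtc
SCN2A: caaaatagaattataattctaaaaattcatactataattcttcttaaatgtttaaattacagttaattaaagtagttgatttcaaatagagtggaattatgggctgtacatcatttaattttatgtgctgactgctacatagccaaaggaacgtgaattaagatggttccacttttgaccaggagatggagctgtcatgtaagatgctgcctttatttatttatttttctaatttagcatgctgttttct
SCN11A: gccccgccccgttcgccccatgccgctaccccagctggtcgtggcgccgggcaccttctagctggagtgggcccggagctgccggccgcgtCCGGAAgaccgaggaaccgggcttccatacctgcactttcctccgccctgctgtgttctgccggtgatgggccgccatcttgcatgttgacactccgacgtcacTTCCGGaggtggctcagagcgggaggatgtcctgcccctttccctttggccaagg

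CACNA1B and SCN2A, which both rose, had windows of opposite composition. G and C made up 85.2% of the CACNA1B window, with 39 CG pairs, and 29.2% of this SCN2A window, with 1 CG pair, where the median over all 35116 promoters in the table was 58.0%. RefSeq promoters were found for 20 of the 34 members, 34 windows in all, 10 of them from 7 genes that rose. For ETS factors the letters CCGGAA were searched on both strands, the other strand being TTCCGG, and they occurred in 14.5% of all promoters. Shorter forms of the ETS motif were not searched. CCGGAA was present in 1 of the 34 channel windows, the SCN11A window shown, which carries it 159 and 55 bases before that start. The other SCN11A window, at chr3:38950562-38950811, had no match, and SCN11A did not pass the test. The longer form CCGGAAGT, which contains CCGGAA, occurred in 3.42% of all promoters and in the same SCN11A window. No match says only that these letters are not in these windows.

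All 3 tested alpha2delta genes rose, and by the genes' own rows they had the highest levels per kilobase of the calcium channel genes. CACNA2D1, the main binding protein of gabapentin, counted 4597, 4214 and 5073 with ELF4 siRNA and 3572, 3245 and 3764 with Control siRNA. The change was 0.39 (SE 0.065, limma adjusted p = 0.000228). CACNA2D2, a close relative that also binds gabapentin, counted 3499, 3649 and 3337 with ELF4 siRNA and 2225, 2200.2 and 2232 with Control siRNA, a change of 0.65 (SE 0.044, limma adjusted p = 5.50e-08). CACNA2D3 counted 759, 825 and 819.7 with ELF4 siRNA and 474, 492 and 465 with Control siRNA, a change of 0.75 (SE 0.058, limma adjusted p = 2.19e-07). In none of these genes did the groups overlap. The class summed to 8928 ± 279 with ELF4 siRNA and 6229 ± 264 with Control siRNA, a ratio of 1.43. CACNA2D4 had 1 to 8 reads a library and was not tested.

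Of the cytoplasmic beta subunits, CACNB1 rose and the more abundant CACNB3 did not pass. CACNB1, best known from skeletal muscle and also present in neurons, counted 243, 228 and 207 with ELF4 siRNA and 160.2, 161 and 147 with Control siRNA. All ELF4 siRNA values were higher, and the change was 0.53 (SE 0.088, limma adjusted p = 0.000216). CACNB3 counted 376, 414 and 382 with ELF4 siRNA and 413, 447 and 395 with Control siRNA. Those groups overlapped, and the interval of -0.25 to 0.05 lies below the change of CACNB1. CACNB3 held 61.7% ± 2.52 of the beta signal per kb with ELF4 siRNA and 71.0% ± 0.853 with Control siRNA. CACNB2 counted 19.8, 12.3 and 16.6 with ELF4 siRNA and 16.96, 16.0 and 11.3 with Control siRNA and did not pass (limma adjusted p = 0.723), and CACNB4 had 5 to 11 reads a library and was not tested.

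Of the 4 tested gamma genes, CACNG2 and CACNG4 rose, CACNG5 fell and CACNG7 did not pass. CACNG2 encodes stargazin, which carries AMPA receptors to synapses, and counted 80.4, 77.4 and 83.8 with ELF4 siRNA and 54.6, 45.7 and 66.6 with Control siRNA. Each ELF4 siRNA library was above each control library, and the change was 0.54 (SE 0.14, limma adjusted p = 0.00654). CACNG4, of the same AMPA receptor group, counted 218, 248 and 229 with ELF4 siRNA and 204, 179 and 191 with Control siRNA, again without overlap, a change of 0.27 (SE 0.084, limma adjusted p = 0.0166). That call was lost without ELF4 siRNA replicate 2 (0.0710), without Control siRNA replicate 2 (0.0557) and with DESeq2 (0.0576). The row that joins CACNG4 with AC005544.1 held 90.1% of the signal of both rows, at 2109 ± 145 with ELF4 siRNA and 1737 ± 61.2 with Control siRNA, and the sum of both rows changed by 0.28 (SE 0.053, limma adjusted p = 0.000658).

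CACNG5, its neighbour in the gene order, counted 7.71, 10.1 and 9.31 with ELF4 siRNA and 16.0, 17.1 and 17.7 with Control siRNA. The groups stood clearly apart, on 7 to 25 reads a library, and the change was -0.84 (SE 0.24, limma adjusted p = 0.0109). CACNG7 counted 115, 139 and 113 with ELF4 siRNA and 121, 128 and 113 with Control siRNA, which overlapped, with an interval of -0.22 to 0.25. CACNG8 had 7, 8 and 6 reads with ELF4 siRNA and 1, 6 and 5 with Control siRNA in its own row. Its row joined with MIR935 held 95.2% of the signal, at 122 ± 11.3 with ELF4 siRNA and 105 ± 7.52 with Control siRNA, and did not pass (limma adjusted p = 0.115). The muscle subunit CACNG1 had 1 to 6 reads a library.

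Genes whose products bind, place or follow these channels were drawn from 7 lists of 96 genes, of which 87 had a row and 80 were tested. Of these 30 rose and 16 fell, beside 20.7% and 24.4% of all genes tested, with a median log2 fold change of 0.01. The sodium channel partners had 9 rises and 2 falls among 16 tested genes, with a median of 0.20. CNTN1, an adhesion molecule that binds sodium channels, was at 5884 ± 189 with ELF4 siRNA and 3518 ± 238 with Control siRNA (0.74, limma adjusted p = 5.85e-08). The spectrin genes SPTBN1 (0.40) and SPTBN4 (0.46), whose products lie under the membrane, rose as well. SPTBN1 averaged 10390.2 with ELF4 siRNA and 7878 with Control siRNA, and SPTBN4 averaged 566 with ELF4 siRNA and 411 with Control siRNA. In the complex of the sodium leak channel, UNC79 (2069 ± 49.5 with ELF4 siRNA, 1438 ± 31.1 with Control siRNA) and UNC80 (975 ± 28.3 with ELF4 siRNA, 759.6 ± 18.9 with Control siRNA) rose, while FAM155A did not pass (-0.08, limma adjusted p = 0.25).

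Calcium channel partners had 6 rises, 6 falls and 11 that did not pass among 23 tested genes. That is 26.1% each way, near the 20.7% rises and 24.4% falls of all genes tested. RIMBP2, which ties calcium channels to release sites, was at 3490.2 ± 59.2 with ELF4 siRNA and 2756 ± 22.9 with Control siRNA (0.34, limma adjusted p = 8.13e-06). CACHD1, a relative of the alpha2delta proteins, was at 249 ± 6.56 with ELF4 siRNA and 389 ± 19.6 with Control siRNA (-0.64, limma adjusted p = 4.65e-06), the opposite direction to the alpha2delta genes. STAC2, which slows inactivation of L-type channels, was at 29.4 ± 5.97 with ELF4 siRNA and 63.9 ± 2.92 with Control siRNA (-1.11, limma adjusted p = 7.65e-05).

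Of 16 genes for calcium stores, pumps and exchangers, 6 rose (37.5%) and 2 fell (12.5%). Of all genes tested 20.7% rose and 24.4% fell. ITPR1, the inositol trisphosphate receptor of neurons, was at 4528 ± 279.7 with ELF4 siRNA and 2789 ± 52.9 with Control siRNA (0.70, limma adjusted p = 6.14e-08). RYR2, a ryanodine receptor that releases stored calcium, was at 591 ± 64.8 with ELF4 siRNA and 346 ± 11.7 with Control siRNA (0.76, limma adjusted p = 2.77e-06), and ITPR2 changed by 0.43. Calcium sensors and effectors had 3 rises and 3 falls among 11 tested, 27.3% each way and near the shares of all genes. The kinase genes CAMK4 (0.22) and CAMK2A (0.71) rose and the calcineurin gene PPP3CB (-0.37) fell. Among other voltage-gated cation channels 3 of 4 rose, the endolysosomal channel genes TPCN1 (0.34) and TPCN2 (0.28), and CATSPER2 (0.82), which has a near-identical copy in the genome, so its level is uncertain.

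The REST list holds the repressor that binds neuronal genes, SCN2A among its classical targets, together with its cofactors. Of 6 tested genes 3 fell (50%) and 1 rose (16.7%), beside 24.4% and 20.7% of all genes tested. REST was at 88.1, 75.2 and 94.2 with ELF4 siRNA and 131, 144 and 164 with Control siRNA, with no overlap and a change of -0.76 (SE 0.12, limma adjusted p = 0.000118). The cofactor genes RCOR1 (1507 ± 80.4 with ELF4 siRNA, 2494 ± 99.99 with Control siRNA, -0.73) and CTDSPL (168 ± 2.71 with ELF4 siRNA, 314 ± 17.1 with Control siRNA, -0.90) fell too. The part of REST in the channel results was not tested.

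**Figure D4:**
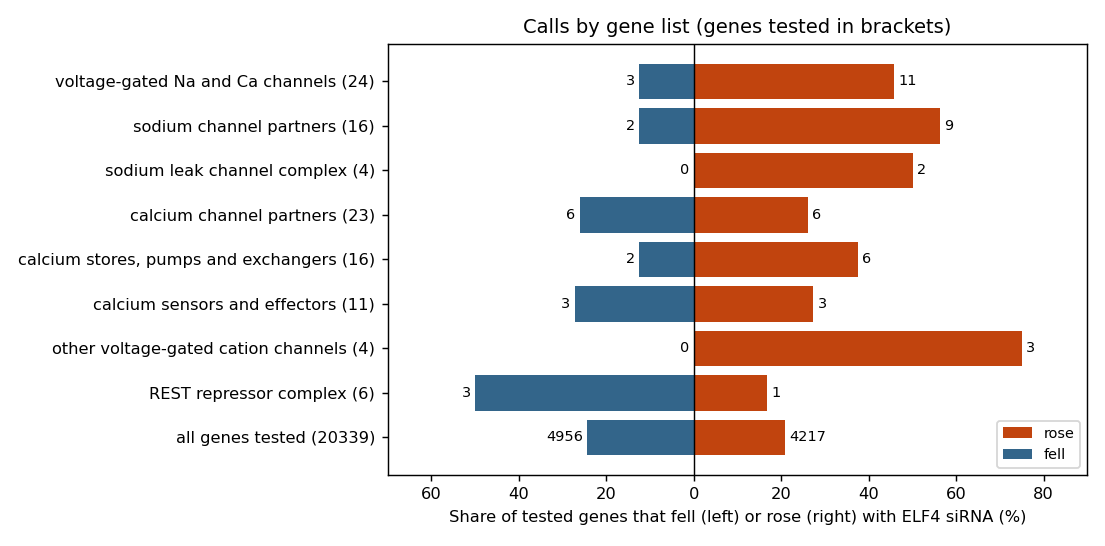
Share of tested genes that rose (right) or fell (left) with ELF4 siRNA for the channel genes, the 7 lists of partner and related genes and all genes tested, with the number of genes at each bar. The channel genes and sodium channel partners lean to rises. Calcium channel partners had 6 rises and 6 falls (26.1% each), and all genes tested had 4217 rises (20.7%) and 4956 falls (24.4%).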

How the data were processed

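PolyA RNA from 6 libraries, 3 per group, was measured by RNA-seq. The deposited signal is a normalised read count per gene. TopHat, featureCounts, DESeq2 and hg19 are named per the submitters' processing notes, while versions, annotation, strand setting and filters were not given in the sources used here, so a gene and an antisense partner cannot be told apart. The deposited signal values are whole reads divided by 1 factor per library, since 100% of them gave a whole number, to within 0.001, when the factor was removed. Joined names fill 2148 rows with 11.4% of the reads. Replicates of a group differed by more than sampling noise (chi-square per degree of freedom 2.06 to 5.83). The series text gives triplicate treatment and the labels number the replicates, but neither names separate cultures. The p-values therefore reflect library-to-library spread alone, which could be technical.

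The comparison was fitted over all genes, without covariates, by limma 3.58.1 with a trend in R 4.3.3 on log2(value + 1), since the values were deposited normalised. Benjamini-Hochberg adjusted p-values under 0.05 were called. Alternatives were other pseudocounts, filters and scalings, no trend, edgeR 4.0.16 and DESeq2 1.42.0 on recovered reads, joined rows added, each library left out in turn and a replicate block. With edgeR, 4454 genes rose and 4807 fell. Tests were tested on simulated data. Members and lists were chosen with earlier results of these data known. The text names ELF4, the members and, per partner list, up to 3 tested genes with the smallest adjusted p, with marker lists by their sums or means. Values of a few genes, counted in the totals, are not reported here. Exon lengths are from GENCODE 29, which is on another build, and promoters from RefSeq on GRCh38.p14, both matched by symbol.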

Additional observations from a re-analysis of the deposited data

How the results depend on the processing

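For the 24 tested channel genes, 385 of 396 values under the alternatives kept their side of the threshold, 9 no longer passed and 2 newly passed, and no called value changed direction; values that passed neither way were not compared for direction. The lost calls were in CACNG4, SCN7A and SCN4B, given with their adjusted p above, and the new ones, SCN9A among them (0.26, limma adjusted p = 0.0279), came with upper-quartile scaling. The 11 rises stayed at 9 to 13, and leaving out 1 library gave 9 to 11. The 3 falls became 1 with testing limited to means of 100 or more, which leaves 15 channel genes, and 1 with DESeq2, which gave no adjusted p for SCN4B (unadjusted p = 0.0087) and CACNG5 (unadjusted p = 0.0644); leaving out 1 library gave 3 each time. Upper-quartile scaling raised the median change of all genes by 0.09 and gave 5939 rises and 3597 falls, against 4217 and 4956, while the channel genes had 13 and 3. The counts of partner genes and of all genes stayed within 1.5 times under every alternative. The labels number the replicates but do not say whether same-numbered libraries were handled together, and the main fit leaves a possible pairing out. Deviations of same-numbered libraries correlated at 0.029, 0.075 and 0.041, and each library correlated best with its own number. With the replicate block the channel genes had 11 rises and 3 falls, the partner genes 30 and 19, and all genes 4564 and 5346. Depth limits SCN1A, SCN11A and other genes at 12 to 33 reads a library or fewer, whose intervals are wider than the change of SCN3A.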
